A study of Rattus norvegicus with 4 samples.

Results

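The 6 genes described here are 4 genes of the CCAAT/enhancer-binding protein (C/EBP) family (Cebpa, Cebpb, Cebpd and Cebpg), Cebpz and the activating transcription factor gene Atf5. They were taken by symbol from a table of 17778 gene rows, and all 6 had a row. RNA came from RSC96, an established rat Schwann cell line (Schwann cells are the glia of peripheral nerves). Both groups went without serum overnight. The 2 samples of the IL-22 group then received the recombinant rat cytokine IL-22, a relative of IL-10 that acts through STAT3, at 100 ng/ml for 48 h, and the 2 controls received its solvent, 0.1% bovine serum albumin, with no duration stated. Nothing in the labels says that the 2 libraries of a group came from separate cultures, so p-values reflect library-to-library spread that could be purely technical.

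C/EBP proteins are basic leucine zipper (bZIP) transcription factors that bind DNA as dimers, with each other or with bZIP proteins of the ATF and AP-1 families. C/EBPβ and C/EBPδ are induced by cytokines that signal through STAT3 and NF-kappaB and drive inflammatory and acute-phase genes, C/EBPα is known for halting proliferation during the differentiation of fat and myeloid cells, and C/EBPγ lacks an activation domain of its own and pairs with ATF4 and other bZIP proteins. ATF5 is a relative of ATF4, is translated preferentially under stress and acts on mitochondrial chaperone and protease genes. Cebpz, despite its symbol, encodes no bZIP protein of this family but a CCAAT-binding nucleolar protein of ribosome assembly, and it is not the C/EBP relative CHOP, whose gene is Ddit3.

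Expression is in FPKM, fragments scaled by transcript length and library, so that levels of different genes within a library can be set side by side. Read totals were not given, and the spacing of low values gave relative depths of 1 and 1.28 for the controls and 1.08 for each IL-22 library. Of the marker genes of the Schwann lineage, Sox10, S100b, Ngfr and Mbp did not exceed 0.119 FPKM in any library, while Pmp22 and Ncam1 were between 18.2 and 42.3 FPKM. The 14 Schwann genes listed summed to 50.9 and 53.9 FPKM in controls and 99.5 and 106 FPKM with IL-22, a sum carried by Pmp22 and Ncam1. Of 7 tested, limma called 6 higher, led by Egr2 (2.06), Cadm4 (1.86) and Dhh (1.11), and 1 lower, Gfap (-0.70), whose call was lost without control library 1 or IL-22 library 1. Egr2 and Erbb3 averaged under 1 FPKM in controls, and Gfap averaged under 1 FPKM with IL-22. They reached the minimum for testing, a mean of 1 FPKM over all libraries, only through the other group. A difference was thus built into their being tested. The part of the marker shifts in the results below was not tested. Macrophages are rich in C/EBPβ, and 7 macrophage marker genes summed to 4.47 and 4.19 FPKM in controls and to 6.25 and 3.80 FPKM with IL-22, with Aif1 and Emr1 listed at 0 in all 4 libraries and Ptprc at or below 0.0252 FPKM. Cd14 (0.47, limma adjusted p = 0.0833) and Cd68 (-0.34, adjusted p = 0.126) did not pass, although Cd14 did without IL-22 library 2 (0.81, adjusted p = 0.00166). Of 6 fibroblast markers Dcn and Lum were listed at 0 throughout. The other 4 moved in opposite directions around a flat sum of 397 to 407 FPKM: limma called Col1a1 (-0.55) and Col1a2 (-0.23) lower and Pdgfra (0.33) and Thy1 (0.19) higher, and leaving out each library in turn left 0 to 1 called higher and 0 to 2 lower. In such bulk RNA a change in the share of expressing cells and a change in RNA per cell cannot be told apart.

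Cebpd, Cebpb, Cebpg and Atf5 were higher with IL-22, Cebpz was lower, and Cebpa stayed near 1 FPKM in both groups. Of the 6 genes, 4 were called higher and 1 lower by limma (Benjamini-Hochberg adjusted p under 0.05 over all tested genes), and Cebpa lay under the minimum of a mean of 1 FPKM and was not tested. Among all 9485 tested genes 27.6% were called higher and 30.8% lower, so a call alone is common in these data. Control and IL-22 values were separate in 80.1% of tested genes, as in 5 of these 6. In 4.68% they were separate and higher with IL-22 by at least 1 on the log2 scale, as for Cebpd and Cebpb.

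**Figure D1:**
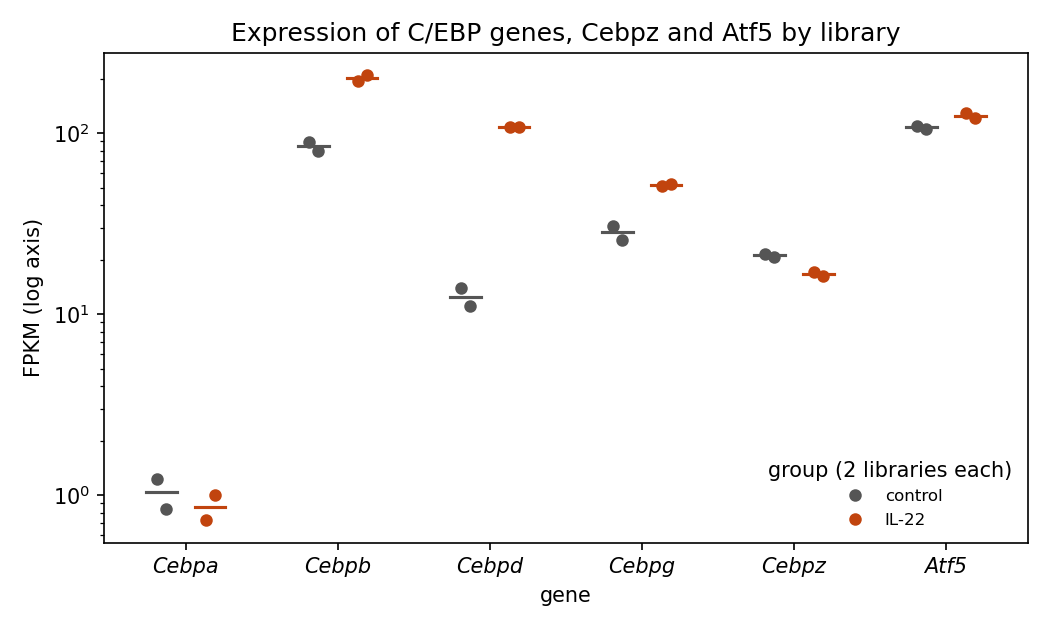
FPKM of the 6 genes in each library on a log axis, with control libraries in grey, IL-22 libraries in red and the mean of each pair as a bar. Cebpd rose from 13.9 and 11.0 FPKM to 108 in both IL-22 libraries, and the groups overlapped only for Cebpa.

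Cebpd, the family member known as an acute target of STAT3 and as an early response gene of inflammation, changed most on the log2 scale. It measured 13.9 and 11.0 FPKM in the control libraries and 108 FPKM in both IL-22 libraries. The IL-22 libraries lay close together and far above both controls. The means were 12.5 ± 2.03 and 108 ± 0.188 FPKM (SD, n = 2 each), a ratio of 8.66, and the limma difference on the log2(FPKM + 1) scale was 3.02 ± 0.10 (SE, adjusted p = 1.13e-07). This was rank 19 of 9485 among differences towards higher expression. In the controls 41.8% and 35.7% of tested genes lay below Cebpd, and with IL-22 90.7% and 90.5% did.

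Cebpb encodes the most abundant of the family transcripts here, whose protein is made in activating and inhibitory isoforms by choice of start codon, a choice that RNA levels do not show. It measured 89.2 and 79.8 FPKM in controls and 194 and 209 FPKM with IL-22. Both IL-22 libraries were above both controls. The means of 84.5 ± 6.61 and 201 ± 10.2 FPKM (SD, n = 2 each) gave a ratio of 2.38 and a difference of 1.25 ± 0.07 (SE, limma adjusted p = 2.39e-06), rank 260 of 9485. Relative to its control level, Cebpd rose more than Cebpb. The ratio of Cebpb to Cebpd was 6.42 and 7.24 in controls and 1.80 and 1.93 with IL-22. An exact two-sided permutation test of the log2 of that ratio gave p = 0.333, the smallest value that 2 libraries against 2 allow.

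Cebpg, the short family member that works as a partner in dimers, measured 30.7 and 25.7 FPKM in controls and 51.2 and 52.2 FPKM with IL-22. The groups did not overlap. Means of 28.2 ± 3.53 and 51.7 ± 0.737 FPKM (SD, n = 2 each) gave a ratio of 1.83 and a difference of 0.86 ± 0.09 (SE, limma adjusted p = 6.00e-05), rank 610 of 9485. Cebpa lies next to Cebpg, with no other protein-coding gene between them in the RefSeq gene table of the assembly GRCr8. Cebpa measured 1.23 and 0.842 FPKM in controls and 0.725 and 0.996 FPKM with IL-22, so its groups overlapped. Its means were 1.04 ± 0.273 and 0.861 ± 0.192 FPKM (SD, n = 2 each), and with no minimum on expression its difference was -0.13 (limma adjusted p = 0.502). Cebpe, the granulocyte member of the family, was listed at 0 in all 4 libraries.

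The 250 bases before the annotated starts of Cebpb, Cebpg and Cebpa are shown, with the letter patterns found in them in capitals. Cebpb and Cebpg were higher with IL-22, and Cebpa, the neighbour of Cebpg, was not. No such window was available for Cebpd, the gene with the largest log2 difference, so its promoter was not searched. The sequences shown are RefSeq sequences of GRCr8, 5′ to 3′ on the strand of the gene. The windows are chr3:176816755-176817004 (plus strand) for Cebpb, chr1:96829737-96829986 (minus strand) for Cebpg and chr1:96896334-96896583 (plus strand) for Cebpa.
Cebpb: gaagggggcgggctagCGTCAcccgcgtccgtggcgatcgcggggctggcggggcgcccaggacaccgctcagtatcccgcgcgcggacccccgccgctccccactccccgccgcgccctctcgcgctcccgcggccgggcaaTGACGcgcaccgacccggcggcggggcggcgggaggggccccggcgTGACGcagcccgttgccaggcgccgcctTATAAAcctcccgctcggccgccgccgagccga
Cebpg: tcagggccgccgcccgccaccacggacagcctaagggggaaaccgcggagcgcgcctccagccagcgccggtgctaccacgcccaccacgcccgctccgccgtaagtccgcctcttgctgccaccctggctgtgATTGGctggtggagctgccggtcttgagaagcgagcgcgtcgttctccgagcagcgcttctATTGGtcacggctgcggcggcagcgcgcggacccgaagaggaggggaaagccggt
Cebpa: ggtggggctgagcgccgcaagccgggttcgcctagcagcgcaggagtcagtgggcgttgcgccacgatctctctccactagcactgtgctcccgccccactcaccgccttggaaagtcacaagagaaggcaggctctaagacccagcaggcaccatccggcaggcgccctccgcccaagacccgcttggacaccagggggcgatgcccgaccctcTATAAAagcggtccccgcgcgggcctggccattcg

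Capitals mark TGACG (the core of the cAMP response element), CCAAT (the box bound by NF-Y) and TATAAA (the TATA box), each searched on both strands and counted from -1 at the last base before the start. Cebpb held TGACG 3 times, at -234 to -230 on the opposite strand and at -107 to -103 and -61 to -57 on its own, and TATAAA at -33 to -28. Of 33469 RefSeq promoter windows of this length 18.2% held TGACG and 12.9% held TATAAA. Cebpg held 2 CCAAT boxes on the opposite strand, at -116 to -112 and -55 to -51, a pattern that 34.0% of windows hold, and had no TATAAA. Cebpa held TATAAA at -35 to -30. The C/EBP site TTGCNNAA (in 9.22% of windows), the STAT site TTCNNNGAA (7.67%), the composite C/EBP-ATF site TTGCATCA (0.693%) and the full cAMP response element TGACGTCA (1.59%), which contains TGACG, were searched too and matched in none of these 3 windows. Of the 2 remaining genes in the table, Atf5 held TTGCNNAA at -184 to -177, and Cebpz held it at -180 to -173 and TGACG at -43 to -39, the matches in Cebpz both on the opposite strand. The windows were rich in G and C, at 80.0% for Cebpb, 70.4% for Cebpg and 67.2% for Cebpa, against a median of 51.2% over all windows. These matches describe letters only.

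Atf5 was the most abundant of the 6 genes in controls and changed little. It measured 109 and 106 FPKM in controls and 128 and 122 FPKM with IL-22. The groups were separate by a margin that is small beside the level. Means of 108 ± 2.64 and 125 ± 4.86 FPKM (SD, n = 2 each) gave a ratio of 1.16 and a difference of 0.21 ± 0.06 (SE, limma adjusted p = 0.0181). The limma call did not survive dropping the mean-variance trend (adjusted p = 0.0603), nor dropping control library 2 (adjusted p = 0.0650) or either IL-22 library (adjusted p = 0.179 for library 1 and 0.0532 for library 2). Atf5 overlaps Nup62, a nuclear pore gene, and Il4i1, which was not among the tested genes, in RefSeq. Strand was not stated for these libraries, so reads in the shared stretches cannot be assigned. This limits every Atf5 level, rank and ratio given here. Nup62 itself measured 123 and 133 FPKM in controls and 157 and 167 FPKM with IL-22 (0.34 ± 0.07, limma adjusted p = 0.00237).

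Cebpz measured 21.6 and 20.8 FPKM in controls and 17.1 and 16.2 FPKM with IL-22. Both IL-22 libraries were below both controls. Means of 21.2 ± 0.580 and 16.6 ± 0.657 FPKM (SD, n = 2 each) gave a ratio of 0.786 and a difference of -0.33 ± 0.08 (SE, limma adjusted p = 0.00760), a call lost without IL-22 library 2 (-0.29, adjusted p = 0.0573). Cebpz also overlaps another annotated gene, Cebpzos. Towards lower expression the difference ranked 2374 of 9485.

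**Figure D2:**
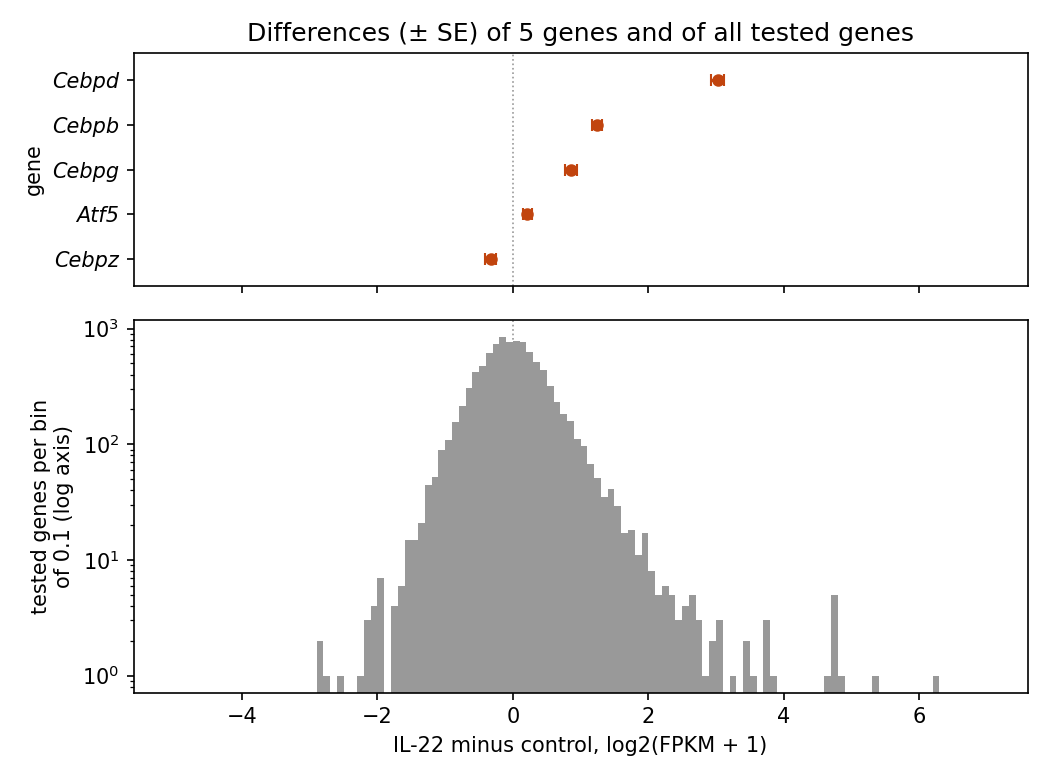
Upper panel: difference of each tested gene of the group, IL-22 minus control in log2(FPKM + 1), as a point with its limma standard error. Lower panel: number of the 9485 tested genes in each bin of difference on a log axis, where Cebpd at 3.02 lies in the sparse right tail and Cebpz at -0.33 and Atf5 at 0.21 lie within the bulk.

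The order of the 6 levels changed. In both control libraries it ran Atf5, Cebpb, Cebpg, Cebpz, Cebpd, Cebpa from high to low, and no neighbours in it overlapped between libraries. With IL-22 it ran Cebpb, Atf5, Cebpd, Cebpg, Cebpz, Cebpa, again without overlap of neighbours. The FPKM of the 4 C/EBP genes summed to 135 and 117 in controls and to 354 and 369.9 with IL-22. Within that sum the share of Cebpd was 10.3% and 9.39% in controls and 30.4% and 29.2% with IL-22. The share of Cebpb was 66.0% and 68.0% in controls and 54.9% and 56.4% with IL-22, although its level rose. Cebpg made up 22.8% and 21.9%, then 14.5% and 14.1%, and Cebpa was below 1% in every library, at 0.909% at most. Each of these shares separated the groups, and exact two-sided permutation tests gave p = 0.333 for each, the smallest possible.

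**Figure D3:**
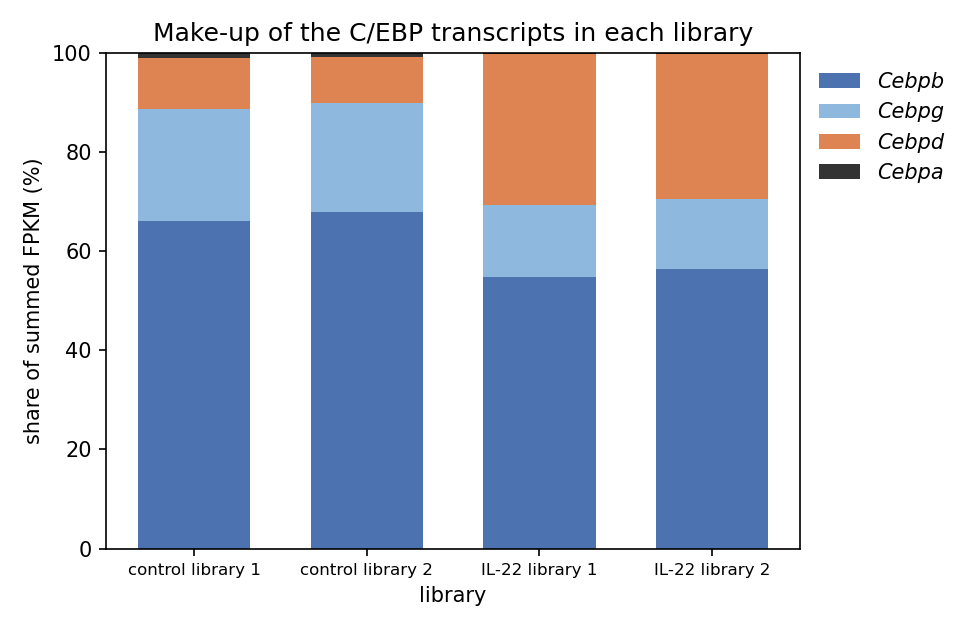
Share of Cebpb, Cebpg, Cebpd and Cebpa in their summed FPKM, in percent, for each of the 4 libraries. Cebpd filled 10.3% and 9.39% of the bar in controls and 30.4% and 29.2% with IL-22.

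Most tested genes of bZIP proteins that pair with C/EBP or ATF proteins rose with them. Such partner genes had 9 rows and 7 tested, and limma called 6 of these higher, beside 27.6% of all tested genes. Their median difference was 1.69 against -0.022 over all tested genes. Jun went the other way, from 68.8 and 63.6 FPKM in controls to 58.1 and 61.8 FPKM with IL-22. It was not past the threshold. Atf3, a stress-induced repressor, measured 3.29 and 2.68 FPKM in controls and 22.8 and 25.6 FPKM with IL-22 (2.66 ± 0.12, limma adjusted p = 3.93e-07). Ddit3, the gene of the dimer partner CHOP, measured 50.1 and 46.3 FPKM in controls and 224 and 259 FPKM with IL-22 (2.30 ± 0.08, limma adjusted p = 1.47e-07). The ratio of Cebpb to Ddit3 was 1.78 and 1.73 in controls and 0.867 and 0.807 with IL-22, so Ddit3 passed Cebpb in level. Batf3, a partner of JUN proteins, reached the minimum through the IL-22 libraries, with control values of 0.545 and 0 FPKM and IL-22 values of 3.06 and 4.08 FPKM.

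Among 14 tested genes of the CREB and ATF families, the relatives of Atf5, 7 were called higher and 2 lower (median 0.24). These counts stand beside 27.6% called higher and 30.8% called lower of all tested genes. Atf2, Atf3 and Atf4 were among the 7 and were counted among the bZIP partners too. Atf4, which translation control raises in the stress response, measured 160 and 165 FPKM in controls and 526 and 527 FPKM with IL-22 (1.69 ± 0.06, limma adjusted p = 1.47e-07). The ratio of Atf5 to Atf4 was 0.686 and 0.639 in controls and 0.244 and 0.231 with IL-22. Creb3l1, a membrane-bound factor of the secretory pathway, rose by 1.27. The 2 lower genes, named after their values were seen, were Atf1 (-0.32) and Atf6b (-0.34).

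Of 19 tested genes that feed into C/EBP transcription 10 were called higher (median 0.33). Socs3, the feedback inhibitor of STAT3 signalling, measured 161 and 166 FPKM in controls and 498 and 533 FPKM with IL-22. Stat3 itself measured 46.8 and 45.3 FPKM in controls and 73.8 FPKM in both IL-22 libraries (0.67 ± 0.07, limma adjusted p = 3.95e-05). Egr2, which activates Cebpb during fat cell differentiation, measured 0.440 and 0.480 FPKM in controls, under the minimum, and 4.63 and 5.60 FPKM with IL-22 (2.06), and Il1r1, the interleukin-1 receptor gene, rose by 0.85. Regulators of C/EBP protein stability, phosphorylation and translation gave 5 called higher and 8 lower among 18 (median -0.11), beside 27.6% and 30.8% of all tested genes. Without control library 2 these counts were 3 and 5, without IL-22 library 2 3 genes were higher, and without IL-22 library 1 4 were lower. Trib2, a pseudokinase that marks C/EBPα for degradation, fell from 2.98 and 2.67 FPKM to 1.49 and 1.31 FPKM (-0.67 ± 0.15, limma adjusted p = 0.00392), and Mapk3, the gene of the kinase ERK1, which phosphorylates C/EBPβ, rose by 0.54. Smarca2, a chromatin remodeller, had a difference of 0.51 that did not pass after quantile normalization (limma adjusted p = 0.213), nor when control library 2 (adjusted p = 0.108) or IL-22 library 2 (adjusted p = 0.172) was dropped.

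**Figure D4:**
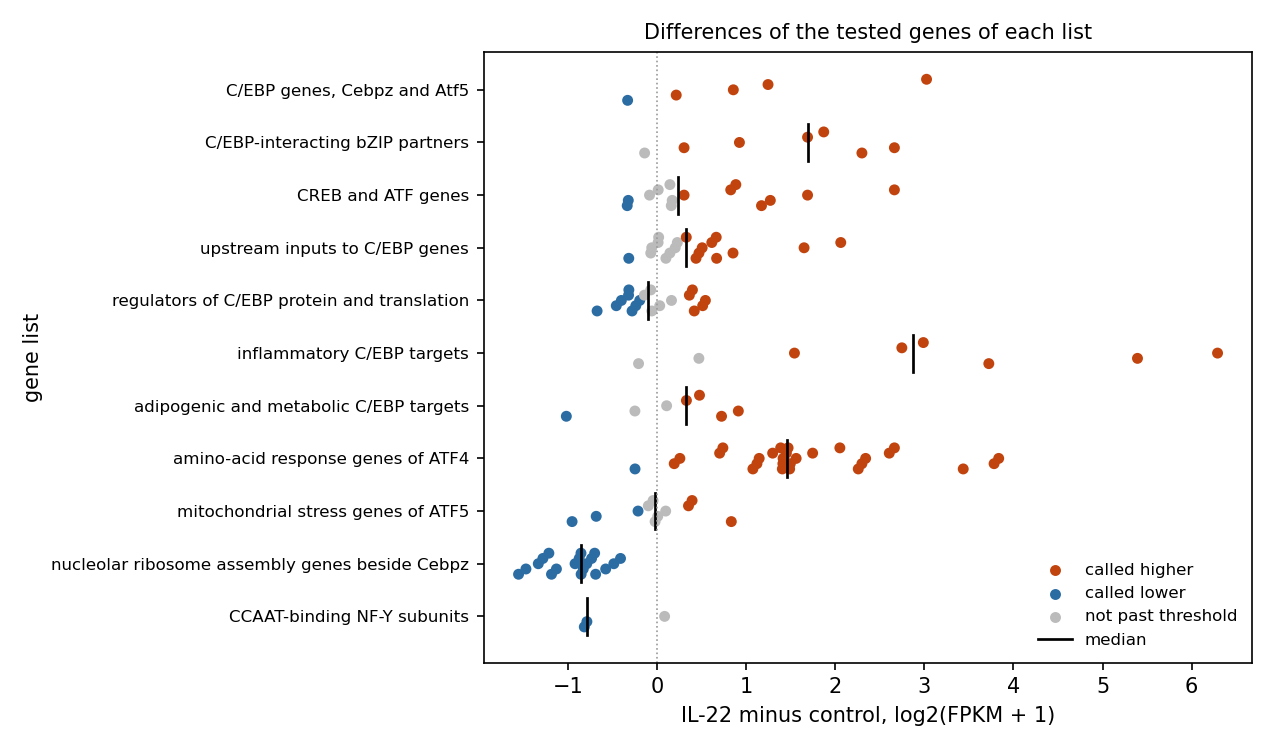
Difference of each tested gene, IL-22 minus control in log2(FPKM + 1), by gene list, in red where called higher, blue where called lower and grey where not past the threshold, with the median of each list other than the first as a bar. The bar lies at 1.69 for bZIP partners and at -0.85 for nucleolar genes.

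Known inflammatory targets of C/EBPβ and C/EBPδ were mostly either near 0 or higher with IL-22. Of 22 with a row 7 were listed at 0 in all libraries, Il1b and Tnf among them, and 8 were tested, of which 6 were called higher and Cd14 and Hp were not past the threshold. Cd14 passed with a replicate block (limma adjusted p = 0.0171) and without IL-22 library 2 (adjusted p = 0.00166). Nos2, Ptgs2 and Il10 reached the minimum only through the IL-22 libraries, so a difference was built into their being tested. The chemokine genes Cxcl1 (6.29 ± 0.09, limma adjusted p = 3.80e-10) and Ccl2 (3.72) and the granulocyte growth factor gene Csf3 (5.39) were the largest differences. Lcn2, an acute-phase gene, stayed under the minimum: it was listed at 0 in the control libraries and measured 0.978 and 1.14 FPKM with IL-22. Of 18 fat cell and metabolic targets of C/EBPα 11 were under the minimum, and 7 of these, Fabp4, Adipoq and Lep among them, were listed at 0 in all libraries. Of the 7 tested 4 were called higher and 1 lower (median 0.33), and 2 were higher without IL-22 library 1. Scd, a fatty-acid desaturase, rose from 322 FPKM in both controls to 609 and 603 FPKM, and Irs2, an insulin receptor substrate, fell from 6.93 and 7.58 FPKM to 3.03 and 3.12 FPKM. Slc2a4, the insulin-regulated glucose transporter gene, differed by 0.72 and reached the minimum only through the IL-22 libraries, and it did not pass after quantile normalization (limma adjusted p = 0.0622). Pparg, the partner of C/EBPα in fat cell differentiation, measured 5.69 and 4.91 FPKM in controls and 4.08 and 4.51 FPKM with IL-22 and did not pass (limma adjusted p = 0.116).

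Amino-acid response genes, which ATF4 activates at composite C/EBP-ATF sites and to which Cebpb, Cebpg and Atf5 are themselves counted, gave 27 higher and 1 lower of 28 tested (median 1.46). Chac1 (3.83), Trib3 (3.78) and Nupr1 (3.44) led them, a glutathione-degrading enzyme, a pseudokinase that binds ATF4 and a stress cofactor. Nupr1, Slc7a11 and Vldlr reached the minimum only through the IL-22 libraries. Atf3 and Ddit3 were counted both here and among the bZIP partners. The lower gene was Wars, named after its values were seen (-0.25), and it did not pass when control library 2 or either IL-22 library was dropped. Of Cebpb, Cebpg and Atf5, the difference of Cebpb (1.25) came nearest to that median and that of Atf5 (0.21) was far below it. Mitochondrial chaperones and proteases, the genes attributed to ATF5, gave 3 higher and 3 lower of 11 with a median of -0.022, shares near the 27.6% and 30.8% of all tested genes. The chaperonin genes Hspd1 (-0.95 ± 0.08, limma adjusted p = 1.98e-05) and Hspe1 (-0.68) fell, and the protease gene Lonp1 rose from 120 and 116 FPKM to 207 and 215 FPKM (0.83 ± 0.06, limma adjusted p = 7.82e-06).

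Other genes of ribosome assembly were lower with IL-22 too. All 19 nucleolar genes listed were called lower by limma, beside 30.8% of all tested genes. Their median was -0.85 and their range was -0.41 to -1.55, against -0.33 for Cebpz. Nop56, a component of box C/D ribonucleoproteins, fell from 122 and 114 FPKM to 40.1 and 39.1 FPKM (-1.55 ± 0.07, limma adjusted p = 3.96e-07), and Nop2 (-1.47) and Utp20 (-1.33) followed. Noc3l, a partner in the same nucleolar protein family, had the smallest fall (-0.41 ± 0.10), and whether it differs from the -0.33 of Cebpz was not tested. Noc2l (-0.74) and Noc4l (-0.85) fell further than Noc3l. Nfya (-0.79) and Nfyc (-0.82), subunits of the other CCAAT-binding factor NF-Y, fell too, while Nfyb measured 10.7 and 9.34 FPKM in controls and 10.1 and 11.3 FPKM with IL-22 and did not pass (limma adjusted p = 0.521).

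The tested genes closest in pattern to Cebpd and Cebpb were found by the root mean square distance of centred log2(FPKM + 1) values over the 4 libraries. For Cebpd they were the inflammatory caspase gene Casp4 (distance 0.034), LOC310926 (0.067) and the transcription factor gene Bhlhe40 (0.130). Casp4 measured 1.18 and 0.734 FPKM in controls against 14.7 and 15.7 FPKM with IL-22, a ratio of means of 15.9 against 8.66 for Cebpd, so its likeness holds on the log2(FPKM + 1) scale and not for the ratio. For Cebpb they were the MHC class II gene RT1-DMb (0.021), the interleukin-1 receptor antagonist gene Il1rn (0.037) and the pyrimidine-degrading enzyme gene Dpyd (0.039), all below 7 FPKM in every library. Casp4, Il1rn and Dpyd had control means under 1 FPKM and reached the minimum only through the IL-22 libraries. Ratios of means were 2.90 for RT1-DMb, 4.97 for Il1rn and 7.17 for Dpyd against 2.38 for Cebpb, so these likenesses too depend on the pseudocount. With 4 libraries in 2 groups such likeness reflects mainly the size of the difference. Measured genes flanking Cebpd and Cebpb in RefSeq order had smaller differences than these 2 genes. Near Cebpd, Spidr measured 3.13 and 4.81 FPKM in controls and 6.73 and 7.11 FPKM with IL-22 (0.69). Its call was lost without the minimum on expression (limma adjusted p = 0.0511). Mzt2b was called higher (0.29), Yars2 was called lower (-0.47) and Pkp2 did not pass (0.23). Near Cebpb, Ube2v1 fell (-0.40 ± 0.06, limma adjusted p = 6.59e-04) and Peds1 rose (0.48 ± 0.08, limma adjusted p = 8.20e-04). Ptpn1 did not pass (0.05).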

How the data were processed

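Poly(A) RNA libraries of RSC96 cells were sequenced on an Illumina HiSeq, as the labels' protocols say. FPKM values were deposited by the authors in a table with 1 column per library. The submitters' processing notes name TopHat2, Cuffdiff and the build rn5 without versions or roles. The sources used here give no annotation, strand, scaling between libraries or read totals, so no counting intervals are given. Scaling by all mapped fragments makes each value depend on the rest of the library. A deposited table of lncRNAs was not used.

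Rows averaging at least 1 FPKM across all libraries entered limma 3.58.1 (R 4.3.3) as log2(FPKM + 1), a scale that understates changes of low genes. The model had the group alone, eBayes moderated variances along a trend, tests were two-sided, and p-values were Benjamini-Hochberg adjusted over 9485 rows. The fit was also run on simulated data with far fewer changed genes and a smoothed spread. That setting differs from these data, so it does not show how reliable the calls here are. Of rows sharing a symbol, that of highest mean was used. The 6 genes, the 13 further gene lists and the tests were chosen with earlier results of these data known. Some genes stand on several lists, so the list counts are not independent. Of 195 listed genes 191 had a row, and results of some genes are not reported here. Per list, up to 3 genes past the threshold by absolute difference were named (for lists with none past it, the 2 most abundant), besides the 6 genes, Stat3, Socs3 and the 3 genes closest in pattern. Genes outside this rule, such as neighbours, listed zeros and completing members of a count, were named after their values were seen. Promoter windows of 5 of the 6 genes, all but Cebpd, came from RefSeq (GRCr8), a build other than that of the files. Alternatives were other pseudocounts, filters, normalizations and eBayes settings, a replicate block, and leaving out each library, which assumes that the lone remaining library has the spread of the other group. Figures used Python 3.11.15 and matplotlib 3.10.9.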

Additional observations from a re-analysis of the deposited data

How the results depend on the processing

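Over 14 alternatives Cebpd (2.70 to 3.18), Cebpb (1.17 to 1.32) and Cebpg (0.73 to 0.98) kept direction and call. Leaving out each library gave -0.37 to -0.29 for Cebpz (limma adjusted p from 0.0170 to 0.0573) and 0.18 to 0.25 for Atf5 (0.0376 to 0.179), which also lost its call without the trend (0.21, adjusted p = 0.0603). Genes of the 6 called lower then numbered 0 to 1, and called higher 3 to 4. Of all tested genes, 2101 to 2755 were higher and 2377 to 3070 lower over all alternatives. The labels give both groups replicate numbers 1 and 2 but no shared source. Same-numbered libraries did not deviate together across genes (r = -0.0020), and with the replicate number as a block 2755 genes were higher and 3070 lower and the 6 genes kept 4 higher and 1 lower. List counts that moved by over 1.5 times, beside those named above, included inflammatory targets (3 higher against 6 with a minimum of 5 FPKM), fat cell targets called lower (2 against 1 with no filter or with quantile normalization), regulators of C/EBP called lower (5 against 8 without the trend), amino-acid response genes called lower (0 against 1 with quantile normalization), Schwann markers (3 higher and 0 lower against 6 and 1 with a minimum of 5 FPKM) and fibroblast markers (1 higher against 2 with no filter, quantile normalization or no trend, and 1 lower against 2 with no filter or no trend). Macrophage markers gave 1 higher against 0 with a replicate block, and 1 lower, Cd68, against 0 with quantile normalization (limma adjusted p = 0.0153) or no trend (0.0375). Cd68 averaged 0.886 FPKM with IL-22 and reached the minimum only through the controls, so a difference was built into its being tested. Absolute depth is unknown and sets no limit that can be given for Cebpa or for genes listed at 0.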
